A study of Mus musculus with 6 samples.

Results

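Of the 17145 genes in the deposited table, 6 long noncoding RNA genes are described here: *Malat1*, *Neat1*, *Meg3* and *Kcnq1ot1*, whose RNAs act in or stay in the nucleus, and *Gas5* and *Snhg1*, hosts of small nucleolar RNAs (snoRNAs). They were chosen by name, with their levels in these libraries and the Atf3_high against Atf3_low contrast already known, so the values of that contrast are given as a description and support no claim about the group. The libraries came from heart sections of FS6KD mice, which carry a homozygous gene-trap insertion that lowers *Ndufs6*, a subunit of respiratory complex I, mainly in the heart, on a mixed C57BL/6J and 129/Ola background. In photo-isolation chemistry, mRNA in a fresh-frozen section is reverse-transcribed with photo-caged primers, areas chosen by anti-Atf3 immunostaining are irradiated with ultraviolet light, and cDNA from the irradiated areas alone is amplified. There were 3 libraries of Atf3_high areas and 3 of Atf3_low areas, both from knockdown hearts labelled female and both labelled as cardiomyocytes. The paper took both kinds of area from inside Atf3-positive clusters, so Atf3_low does not stand for Atf3-negative myocardium. The age of these mice is not given in the labels, and no wild-type heart was part of this comparison.

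A long noncoding RNA is transcribed and often spliced like an mRNA but is not used to make a protein. *Malat1* RNA gathers in nuclear speckles, where splicing factors are stored. The long form of *Neat1* RNA is the scaffold of paraspeckles, nuclear bodies that form on it while it is being transcribed. *Meg3* and *Kcnq1ot1* are imprinted: each is transcribed from 1 parental chromosome, *Meg3* from the maternal and *Kcnq1ot1* from the paternal copy. A snoRNA host is a gene whose introns are processed into snoRNAs, which guide the chemical modification of ribosomal RNA, while the spliced exons of *Gas5* and *Snhg1* are exported and broken down by nonsense-mediated decay when ribosomes translate them.

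The Atf3_high libraries held 184872, 81117 and 210588 unique molecular identifiers (UMIs, tags that let copies of a single cDNA be counted as 1) for replicates 1, 2 and 3, and the Atf3_low libraries held 171536, 125522 and 81917. Levels are given as CPM, counts relative to the library size scaled by the trimmed mean of M-values (TMM) over the 7665 genes that had 10 or more UMIs in total. On this scale 3 UMIs, taken as the most that a count of 0 allows, stood for between 13.97 and 40.9 CPM, the latter in Atf3_low replicate 3; these limits cover counting error only. *Ndufs6* itself had 2, 0 and 3 UMIs in Atf3_high and 0 in each Atf3_low library, and *Atf3* RNA had 50, 7 and 25 UMIs in Atf3_high and 35, 0 and 8 in Atf3_low, the areas having been chosen by the protein. Atf3_high replicate 2 went against its female label: it held 8 UMIs of *Ddx3y*, 8 of *Eif2s3y* (both on the Y chromosome) and 0 of *Xist*, the RNA of the inactive X chromosome. In the other 5 libraries *Xist* had between 3 and 26 UMIs and the 2 Y-linked genes together 1 UMI. The log2 fold changes of the 6 members without that library are therefore given beside the main ones. All 11 cardiomyocyte markers in the table were detected in each of the 6 libraries; markers of other cell types were detected too.

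Together the 6 RNAs took 0.209%, 0.234% and 0.284% of the UMIs of the Atf3_high libraries (95% exact binomial intervals 0.189 to 0.231, 0.202 to 0.27 and 0.261 to 0.307) and 0.0863%, 0.296% and 0.188% of the Atf3_low libraries (0.0729 to 0.101, 0.266 to 0.327 and 0.16 to 0.22). The mean share was 0.242% ± 0.0378 in Atf3_high and 0.19% ± 0.105 in Atf3_low (SD, n = 3), a difference of 0.0524 percentage points that lay within the SD of the Atf3_low libraries. It was 0.00053 points without Atf3_low replicate 1, 0.105 without Atf3_low replicate 2, 0.0318 without Atf3_high replicate 3 and 0.0564 without Atf3_high replicate 2. *Neat1* held 1319 UMIs over the 6 libraries, followed by *Malat1* with 178, *Snhg1* with 124, *Gas5* with 112, *Kcnq1ot1* with 86 and *Meg3* with 28. Every member thus passed the minimum of 10 UMIs and was tested, *Meg3* on very few molecules. Among the 1557 table rows typed as long noncoding RNA, *Neat1* ranked 1 and *Malat1* 2 by UMIs, *Snhg1* 5, *Gas5* 7, *Kcnq1ot1* 11 and *Meg3* 39.

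Levels of different genes were compared per kilobase of annotated exon sequence, a scale that suits these libraries only roughly because CEL-seq2 counts a molecule where its priming site lies and not along its length. On it *Neat1* came first with 77.2 ± 30.5 CPM per kilobase (SD over the 6 libraries), then *Snhg1* with 43.6 ± 34.4, *Gas5* with 33.3 ± 17.0, *Malat1* with 31.4 ± 23.9, *Meg3* with 2.29 ± 1.64 and *Kcnq1ot1* with 0.92 ± 0.664. This order pools both groups, although the mean level of *Snhg1* was 218 CPM in Atf3_high and 41.4 CPM in Atf3_low. *Malat1* stood above *Meg3* in all 6 libraries. The other neighbours in this order changed places in at least 1 library: *Neat1* was above *Snhg1* in 5, *Snhg1* above *Gas5* in 4, *Gas5* above *Malat1* in 5 and *Meg3* above *Kcnq1ot1* in 4 of the 6. The low place of *Kcnq1ot1* is that of a level divided by an exon of 93092 bases. The level of *Neat1* was divided by 20771 bases, the length of its longest annotated transcript.

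*Snhg1*, which hosts box C/D snoRNAs in its introns, showed the widest separation of the 6. Its counts were 50, 18 and 39 UMIs in Atf3_high and 11, 6 and 0 in Atf3_low, or 254, 217 and 182 CPM against 74.1, 50.1 and 0 CPM. All 3 Atf3_high libraries lay above all 3 Atf3_low libraries, and the library without a UMI was the one whose count of 0 allows up to 40.9 CPM. The means were 218 ± 36.2 CPM in Atf3_high and 41.4 ± 37.8 CPM in Atf3_low (SD, n = 3), and the log2 fold change of Atf3_high over Atf3_low was 2.22 ± 0.62 (SE). With Benjamini-Hochberg adjustment over all 7665 genes, edgeR's quasi-likelihood test gave *Snhg1* an adjusted p of 0.364, so it was not called. The log2 fold change was 2.21 without Atf3_high replicate 2 (adjusted p 0.929 by the same edgeR test) and 1.76 without Atf3_low replicate 3, the library with no *Snhg1* UMI. The genes most like *Snhg1* over the libraries were *Fam120a* (r = 0.988) and *Cltc* (r = 0.984).

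*Gas5*, a host of box C/D snoRNAs named for its rise in growth-arrested cells, had 48, 12 and 21 UMIs in Atf3_high and 12, 14 and 5 in Atf3_low. In CPM these were 244, 145 and 97.8 against 80.9, 117 and 68.1. The groups overlapped, since Atf3_low replicate 2 exceeded Atf3_high replicate 3. The means were 162 ± 74.6 and 88.6 ± 25.3 CPM (SD, n = 3), the log2 fold change was 0.86 ± 0.56 (SE) and the adjusted p by edgeR's Benjamini-Hochberg adjusted quasi-likelihood test was 0.964. Without Atf3_high replicate 1, the library with the highest level, the log2 fold change was 0.41, and without Atf3_high replicate 2 it was 0.91. The 2 genes of at least 100 UMIs whose levels followed *Gas5* most closely over the 6 libraries were *Postn*, a secreted matrix protein and listed fibroblast marker (r = 0.983), and *Slc3a2*, the heavy chain of amino acid transporters (r = 0.981), out of 1024 genes compared. All 10 fibroblast markers were in the table, *Col3a1* being the most abundant, and their summed level was 6189, 3428 and 2632 CPM in Atf3_high and 3059, 3045 and 1866 CPM in Atf3_low, highest in the library with the highest *Gas5* level. Their part in the level of *Gas5* was not tested, and in such bulk areas fewer cells of a type and less RNA per cell cannot be told apart.

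*Neat1* had the most UMIs and did not separate the groups. Its counts were 206, 131 and 473 UMIs in Atf3_high and 102, 273 and 134 in Atf3_low, or 1047, 1581 and 2203 CPM against 687, 2277 and 1825 CPM. The highest and the lowest library were both Atf3_low. With means of 1610 ± 579 and 1597 ± 819 CPM (SD, n = 3), the log2 fold change was 0.02 ± 0.38 (SE) and the adjusted p was 0.996 by edgeR's Benjamini-Hochberg adjusted quasi-likelihood test. *Neat1* had over 100 UMIs in every library, and its level differed by 2.1 times within Atf3_high and by 3.31 times within Atf3_low. Without Atf3_low replicate 1 the log2 fold change was −0.40, without Atf3_high replicate 3 it was −0.29, and without Atf3_high replicate 2 it was 0.02. The genes most like it over the libraries were *Hadha*, an enzyme of mitochondrial fatty acid oxidation (r = 0.99), and *Ckm*, muscle creatine kinase (r = 0.977).

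*Malat1* lies beside *Neat1* on chromosome 19, on the same strand, with 22035 bases between them. It had 51, 21 and 21 UMIs in Atf3_high and 18, 62 and 5 in Atf3_low, or 259, 253 and 97.8 CPM against 121, 517 and 68.1 CPM. The highest and the lowest library were again both Atf3_low, and the level differed by 7.6 times within that group. The means were 203.5 ± 91.5 and 235.5 ± 245 CPM (SD, n = 3), the log2 fold change was −0.26 ± 0.54 (SE) and the adjusted p was 0.996 by edgeR's Benjamini-Hochberg adjusted quasi-likelihood test. The sign depended on which libraries were kept: the log2 fold change was 0.98 without Atf3_low replicate 2 and 0.09 without Atf3_high replicate 3, and it was −0.44 without Atf3_high replicate 2. Although they are neighbours, *Malat1* and *Neat1* had a Pearson r of only 0.122 over the 6 libraries. The genes most like *Malat1* were *mt-Rnr1*, the small ribosomal RNA of mitochondria (r = 0.977), and *Rtn3*, an endoplasmic reticulum membrane protein (r = 0.953).

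*Kcnq1ot1*, which silences neighbouring genes in cis on the paternal chromosome, had 29, 3 and 38 UMIs in Atf3_high and 4, 7 and 5 in Atf3_low. In CPM these were 147, 36.2 and 177 against 27.0, 58.4 and 68.1. Replicates 1 and 3 of Atf3_high stood above every Atf3_low library, while Atf3_high replicate 2, the library with Y-linked UMIs, lay among the Atf3_low values. The means were 120.2 ± 74.2 and 51.2 ± 21.5 CPM (SD, n = 3), the log2 fold change was 1.34 ± 0.67 (SE) and the adjusted p was 0.878 by edgeR's Benjamini-Hochberg adjusted quasi-likelihood test. Without Atf3_high replicate 2 the log2 fold change was 1.70, the unadjusted p of the same edgeR test went from 0.0528 to 0.0171 and the adjusted p was 0.938; without Atf3_high replicate 3 the unadjusted p was 0.24. After thinning every library to 81117 UMIs the log2 fold change was 0.65. The most similar genes were *Ddx17*, an RNA helicase (r = 0.93), and *Tacc2*, a centrosome-associated protein (r = 0.906).

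*Meg3*, the maternally expressed RNA of the *Dlk1*-*Meg3* domain, had 3, 5 and 5 UMIs in Atf3_high and 1, 9 and 5 in Atf3_low, or 15.2, 60.3 and 23.3 CPM against 6.74, 75.1 and 68.1 CPM. The means were 33.0 ± 24.1 and 49.97 ± 37.6 CPM (SD, n = 3), with a log2 fold change of −0.67 ± 0.95 (SE) and an adjusted p of 0.996 by edgeR's Benjamini-Hochberg adjusted quasi-likelihood test. The log2 fold change was −1.29 without Atf3_high replicate 2 and −1.30 without Atf3_low replicate 1, but −0.30 without Atf3_high replicate 1, −0.19 without Atf3_low replicate 2 and −0.21 after thinning. Over all 6 libraries the SE was larger than the difference, and the groups overlapped. *Meg3* was closest to *Ccnd2*, a cyclin of the G1 phase (r = 0.963), and *Kcnk3*, a potassium channel (r = 0.959), and among the members to *Neat1* (r = 0.809). *Gas5* and *Snhg1* had an r of 0.711 with each other. All of these correlations are over the same 6 libraries, share their depth and scaling, and are descriptions.

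**Figure D1:**
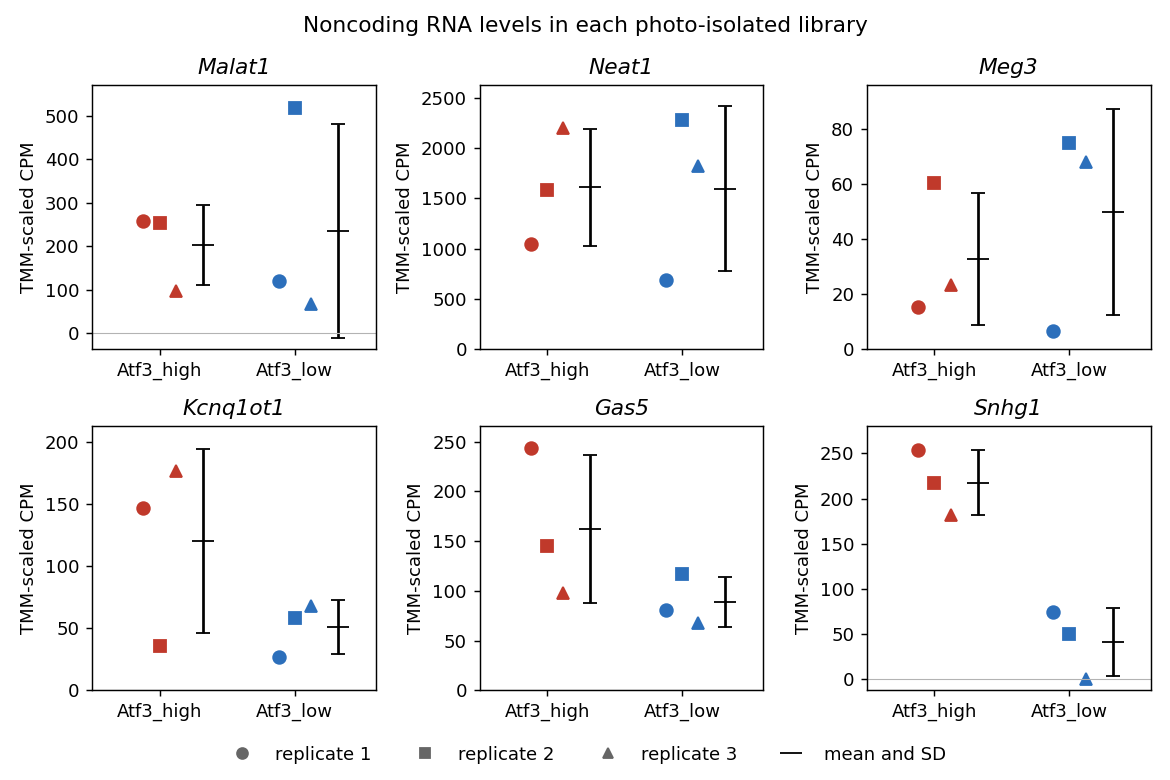
Level of each of the 6 noncoding RNAs in TMM-scaled CPM (vertical axis, a scale of its own in each panel) in the 3 Atf3_high (red) and 3 Atf3_low (blue) libraries, with symbols for the replicates and bars for the mean and SD. The *Snhg1* values of the groups do not overlap (182 to 254 CPM against 0 to 74.1 CPM), and those of the other 5 RNAs do.

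Across all 7665 genes tested, 7 were called at an adjusted p under 0.05 by edgeR's Benjamini-Hochberg adjusted quasi-likelihood test (0.0913%), and 0 of the 6 members were. At an unadjusted p under 0.05 the edgeR test gave 272 genes with a higher (3.55%) and 172 with a lower level in Atf3_high (2.24%), and *Snhg1* was the 1 member among them, on the higher side. DESeq2, limma-voom and limma-trend also called 0 members, each with 1 at an unadjusted p under 0.05. In edgeR *Kcnq1ot1* joined *Snhg1* under that limit without Atf3_high replicate 2, with scaling by library size alone and with no filter. Groups did not overlap for 542 genes with the higher level in Atf3_high (7.07%) and 298 with the lower level (3.89%), and 1 member belonged to the first set and 0 to the second. Because the members were chosen with this contrast known, nothing is read from these counts. Their median log2 fold change was 0.44, against 0.11 for all genes tested, and 4 of the 6 had a positive value, against 55.2% of all genes. The median of the members was 0.46 without Atf3_high replicate 2, 0.17 without Atf3_low replicate 1 (3 of 6 positive) and 1.02 without Atf3_low replicate 2 (5 of 6 positive). Scaling by library size alone moved the median of all genes from 0.11 to 0.31 and that of the members to 0.63, so a log2 fold change is best read relative to those medians. Without Atf3_high replicate 2, 1 gene and 0 members were called.

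Besides *Gas5* and *Snhg1*, 19 long noncoding snoRNA hosts were listed, of which 15 were in the table and 10 had enough UMIs to be tested. None of the 10 was called by edgeR's quasi-likelihood test, and 0 had an unadjusted p under 0.05. Of the 10, 7 had a positive and 3 a negative log2 fold change, with a median of 0.79 against 0.11 for all genes, and the median was 0.85 without Atf3_high replicate 2. Single libraries moved it further: it was 0.29 without Atf3_high replicate 1 (4 of 7 positive), 0.43 without Atf3_low replicate 2 and 1.40 without Atf3_low replicate 1, where 5 of the 10 hosts had an unadjusted p under 0.05, as did 477 of all 7026 genes tested in that setting, and 0 were called. *Zfas1*, the most abundant, had 26, 4 and 16 UMIs in Atf3_high and 15, 5 and 0 in Atf3_low, and its log2 fold change was 0.73 ± 0.74 (SE). *Snhg8* had 9, 2 and 8 UMIs against 3, 0 and 0, and *Snhg15* had 6, 4 and 3 against 2, 0 and 0; in both, and in *Snhg5*, named after its values had been seen, the groups did not overlap, as in 7.07% of all genes on that side, but the Atf3_low counts of these 3 genes were all at or under 3 UMIs. *Snhg14*, the host of brain-expressed imprinted snoRNA clusters, took 38 of its 56 UMIs from Atf3_high replicate 3. *Epb41l4aos* had 21 of its 43 UMIs in Atf3_low replicate 2 and a log2 fold change of −1.22 ± 0.84 (SE). Summed over the 15 hosts, the level was 414 ± 60.6 CPM in Atf3_high and 306 ± 88.9 CPM in Atf3_low (SD, n = 3), with 421.7, 350.0 and 470.5 CPM in the first and 370.6, 342.0 and 204 CPM in the second, which overlap.

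The proteins that bind snoRNAs in the nucleolus were listed as well. Of 12 snoRNP core and assembly symbols, 11 were in the table and 7 were tested: 7 had a positive log2 fold change, 0 were called and 0 had an unadjusted p under 0.05 by edgeR. Without Atf3_low replicate 3 the split was 4 positive and 3 negative, without Atf3_high replicate 1 it was 5 and 1, and without Atf3_high replicate 3 it was 6 and 1. *Nop58*, a core protein of box C/D particles, had 14, 7 and 15 UMIs in Atf3_high and 9, 7 and 0 in Atf3_low (log2 fold change 0.78 ± 0.78, SE), and *Dkc1*, the pseudouridine synthase of box H/ACA particles, had 5, 4 and 2 against 2, 1 and 0. *Nop10* and *Gar1*, also of box H/ACA particles, had log2 fold changes of 0.21 ± 0.56 and 0.16 ± 0.98 (SE). The median of the 7 was 0.78 and became 0.38 without Atf3_high replicate 2 and 0.29 without Atf3_low replicate 3. Of 17 factors of nonsense-mediated decay and the exon junction complex, which mark and destroy transcripts with premature stop codons, 12 were tested, with 7 positive, 5 negative and 0 called. The split was 3 positive and 6 negative without Atf3_high replicate 1 and 10 and 2 without Atf3_low replicate 2. *Smg1*, the kinase of the pathway, had 186 UMIs, 104 of them in Atf3_high replicate 3, and a log2 fold change of 0.46 ± 0.55 (SE). *Rbm8a*, a core protein of the exon junction complex, was at 0.29 ± 0.78, and the 2 smallest p-values belonged to *Magohb* (2.07 ± 1.66, 10 UMIs) and *Eif4a3* (1.16 ± 1.02, 27 UMIs), log2 fold changes with SE.

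The proteins of the nuclear bodies that *Neat1* and *Malat1* belong to were listed next. Of 15 paraspeckle proteins 14 were tested, 9 with a positive and 5 with a negative log2 fold change and a median of 0.36, and 0 were called by edgeR or had an unadjusted p under 0.05. The median was between 0.07, without Atf3_low replicate 3, and 0.72, without Atf3_low replicate 1, with each library left out, and it was −0.12 over the 7 proteins with at least 50 UMIs and −0.11 with filterByExpr, with 3 positive and 4 negative in both. *Nono*, a core paraspeckle protein that binds *Neat1*, had 11, 5 and 13 UMIs in Atf3_high and 2, 5 and 2 in Atf3_low (log2 fold change 1.10 ± 0.87, SE). Its partner *Sfpq* had 18, 8 and 4 UMIs against 21, 13 and 4 (−0.66 ± 0.67); it was named after its values had been seen. *Hnrnpk* was at 0.14 ± 0.49, *Tardbp* at 0.74 ± 0.56 and *Ewsr1* at −0.34 ± 0.51. Of 17 nuclear speckle proteins 16 were tested, 10 positive and 6 negative with a median of 0.11, the median of all genes, and 0 were called. With each library left out the median was between 0.07, without Atf3_high replicate 3 (7 positive and 7 negative), and 0.22, without Atf3_high replicate 2 (9 and 7). *Son*, a scaffold of speckles and the most abundant of them, had 44, 19 and 106 UMIs in Atf3_high and 46, 63 and 22 in Atf3_low (−0.25 ± 0.44). Among the splicing factors, *Srsf5* had 35, 11 and 77 UMIs against 15, 22 and 3 (1.02 ± 0.54), *Srsf2* had 3, 3 and 7 against 1, 0 and 0, and *Srsf6* and *Srsf11* were at 0.10 ± 0.45 and 0.34 ± 0.50.

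Other nuclear or imprinted long noncoding RNAs numbered 22 on the list, with 16 in the table and 9 tested. Of these 4 had a positive and 5 a negative log2 fold change, with a median of −0.09 that became 0.33 without Atf3_high replicate 2, −0.62 without Atf3_low replicate 1, 0.53 without Atf3_low replicate 2 and 0.11 with scaling by library size alone, so the list has no stable direction. *Oip5os1*, also known as cyrano, had 63, 3 and 45 UMIs in Atf3_high and 18, 14 and 5 in Atf3_low, and like *Kcnq1ot1* it was low in Atf3_high replicate 2 and high in the other 2 libraries of that group (0.91 ± 0.57). *Mhrt*, a cardiac RNA transcribed antisense to the myosin heavy chain gene *Myh7*, had 17, 4 and 33 UMIs against 14, 24 and 7 (−0.38 ± 0.58). *Firre*, an X-linked RNA, had 4, 7 and 35 UMIs against 3, 26 and 7 (−0.28 ± 0.68). *Tug1* had 2, 0 and 8 against 4, 5 and 8 (−1.58 ± 0.99). None was called by edgeR's Benjamini-Hochberg adjusted quasi-likelihood test, and 0 had an unadjusted p under 0.05. All rows typed as long noncoding RNA that could be tested numbered 131 of 1557, with 8 higher and 7 lower at an unadjusted p under 0.05 and a median log2 fold change of 0.04.

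**Figure D2:**
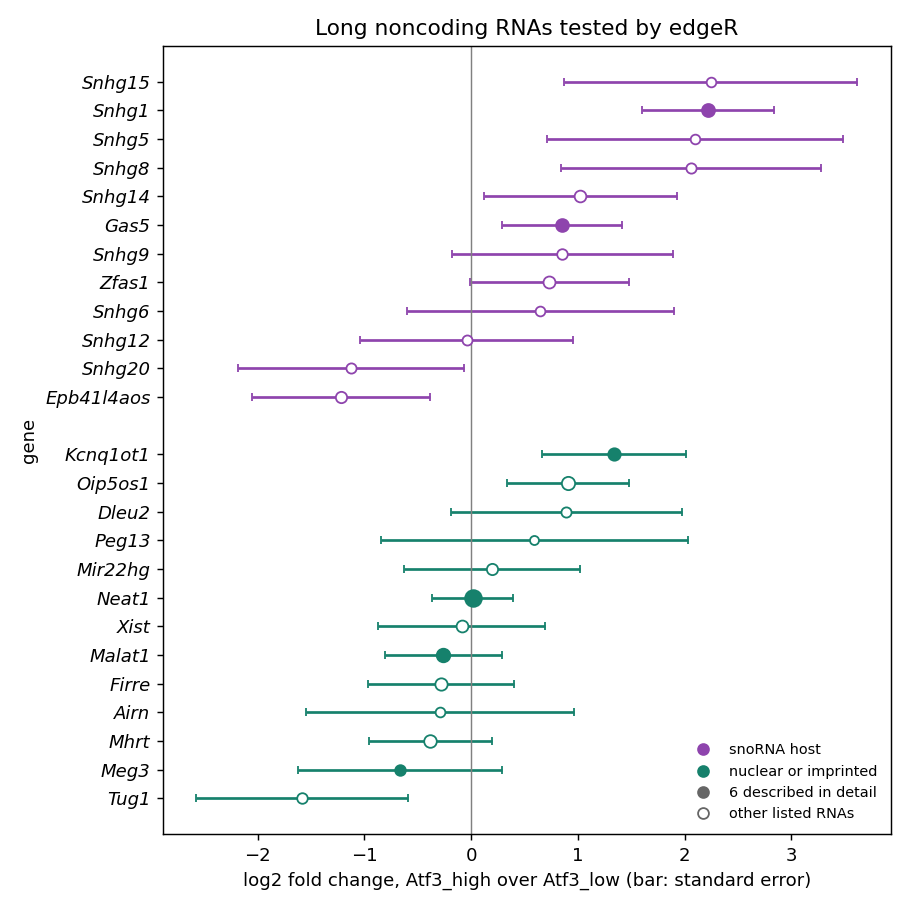
Log2 fold change of Atf3_high over Atf3_low (horizontal axis, bars are the standard error) for the 25 listed long noncoding RNAs that were tested, with snoRNA hosts above and nuclear or imprinted RNAs below, filled points for the 6 described in detail and larger points for more UMIs. The hosts run from −1.22 (*Epb41l4aos*) to 2.25 (*Snhg15*) and the nuclear or imprinted RNAs from −1.58 (*Tug1*) to 1.34 (*Kcnq1ot1*), and 0 of the 25 were called.

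Genes listed for the imprinted domain of *Kcnq1ot1* were set beside it. Whether it acts on any of them in these hearts was not tested. Of 10 listed genes 8 were in the table and 4 were tested, and 4 of 4 had a negative log2 fold change (median −0.73, −0.45 without Atf3_high replicate 2 and −1.28 without Atf3_high replicate 3), with 0 called by edgeR and 0 at an unadjusted p under 0.05. This count depended on the minimum of 10 UMIs: with no filter, 4 of the 8 genes had a positive and 4 a negative value, with a median of 0.49. The genes so added had under 10 UMIs each. Dropping the filter also moved the median of all genes from 0.11 to 0.35. *Cd81*, a tetraspanin at the edge of the domain, had 61, 16 and 60 UMIs in Atf3_high and 71, 50 and 26 in Atf3_low, or 310, 193 and 279.5 CPM against 478, 417 and 354 CPM, and its groups did not overlap (−0.66 ± 0.43), as in 3.89% of all genes on that side. *Kcnq1*, the potassium channel gene in whose intron *Kcnq1ot1* starts, had 5, 0 and 21 UMIs against 14, 9 and 5 (−0.79 ± 0.78). *Nap1l4* and *Tssc4* were at −0.21 ± 0.55 and −1.39 ± 1.26. The imprinted growth inhibitor *Cdkn1c*, named after its values had been seen, had 3 UMIs, all in Atf3_high replicate 3. In the domain of *Meg3* 0 of 5 listed genes could be tested: *Rian* had 5 UMIs in all, *Mirg* 2 and *Dio3* 1.

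Cell type markers were set beside these values. The summed level of the 11 cardiomyocyte markers, led by *Myl2*, was 26530, 26940 and 50030 CPM in Atf3_high and 51600, 55440 and 67100 CPM in Atf3_low; 11 of 11 had a negative log2 fold change, and 9 of 11 with scaling by library size alone, with limma-trend, with no filter, without Atf3_high replicate 1 or without Atf3_low replicate 2. *Myh6*, the main adult ventricular myosin of the mouse, was called with a log2 fold change of −1.81 ± 0.32 (SE) and an adjusted p of 0.00512 by edgeR's Benjamini-Hochberg adjusted quasi-likelihood test, and 0 of the 11 markers were called without Atf3_high replicate 1, Atf3_high replicate 2, Atf3_low replicate 1 or Atf3_low replicate 3. *Tnnt2* was at −0.40 ± 0.33 and *Actc1* at −1.14 ± 0.32. Mitochondrially encoded genes took 17.1%, 21.2% and 16.9% of the UMIs in Atf3_high and 21.9%, 21.9% and 22.6% in Atf3_low. Of 14 of these genes tested 14 had a negative value, and 13 with scaling by library size alone, with limma-trend, without Atf3_high replicate 3 or without Atf3_low replicate 2: *mt-Rnr2*, *mt-Nd4* and *mt-Cytb* had the most UMIs, with −0.31 ± 0.28, −0.44 ± 0.27 and −0.62 ± 0.27, and *mt-Nd3* and *mt-Co2* the smallest p, with −1.08 ± 0.35 and −0.72 ± 0.28. Leaving these genes out of the table altogether gave *Snhg1* 2.21, *Kcnq1ot1* 1.33 and *Gas5* 0.85, but it moved the median of all genes little and is no test of their part, which was not tested.

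Of the fibroblast markers *Postn* (1.59 ± 0.53), *Col1a2* (1.33 ± 0.50), *Col3a1* (1.09 ± 0.52) and *Gsn* (−0.26 ± 0.50) are the most abundant or those of smallest p. In all, 9 of 10 had a positive value, with a median of 0.83, 3 at an unadjusted p under 0.05 by edgeR and 0 called. Without Atf3_high replicate 1, however, the split was 5 positive and 4 negative with a median of 0.05. The median was 0.95 without Atf3_high replicate 2. Of the 10, 1 was at 0 UMIs in Atf3_high replicate 2, 2 in Atf3_low replicate 2 and 1 in Atf3_low replicate 3. The 10 endothelial markers, led by *Fabp4* (−0.17 ± 0.38), summed to 1585, 1303 and 1234 CPM in Atf3_high and 1590, 1477 and 967 CPM in Atf3_low, with *Cdh5* at −0.03 ± 0.53, *Flt1* at 0.31 ± 0.59, *Kdr* at 0.61 ± 0.65 and *Egfl7* at 0.67 ± 0.76. The 8 mural cell markers, led by *Rgs5* (0.50 ± 0.52), summed to 772, 289.6 and 713 CPM against 613, 400.4 and 177 CPM, with *Acta2* at 0.72 ± 0.63 and *Pdgfrb* at 1.21 ± 0.76, and 4 of the 8 were at 0 UMIs in Atf3_low replicate 3. The 10 macrophage markers, led by *Lyz2* (−0.08 ± 0.54), summed to 401.4, 398 and 224 CPM against 243, 367 and 299.6 CPM; *C1qc* was at 0.96 ± 1.04, *C1qa* at −0.80 ± 1.03 and *Fcer1g* at 2.49 ± 1.32, and *Tyrobp* had 12 UMIs in Atf3_high and 0 in Atf3_low. Erythrocyte RNA was scarce, with 57 UMIs of *Hbb-bs* and 1 of *Hba-a2*. The part of cell composition in the levels of the 6 RNAs was not tested.

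In GRCm38, with positions from GENCODE M21, *Malat1* is at chr19:5795690-5802672 on the minus strand, *Neat1* at chr19:5824708-5845478 on the minus strand, *Meg3* at chr12:109541001-109571726 on the plus strand, *Kcnq1ot1* at chr7:143203458-143296549 on the minus strand, *Gas5* at chr1:161034422-161038539 on the plus strand and *Snhg1* at chr19:8723475-8726443 on the plus strand. *Kcnq1ot1* is a single unspliced exon of 93092 bases that lies wholly inside *Kcnq1*, on the opposite strand, and shares 121 exon bases with it. The strand setting of the counting is not given in the sources used here, so reads of these 2 genes cannot be told apart with certainty. The span of *Gas5* holds 10 annotated snoRNA genes and that of *Snhg1* 8, none of which has a row in the table. *Gas5* also overlaps *Zbtb37* on the opposite strand with 0 shared exon bases and 2 UMIs of *Zbtb37* in all. Transcripts that matched at 95% identity or more along 200 or more bases were found outside the locus for *Kcnq1ot1*, in *Gm42636* (375 bases, 8 UMIs), *Vmn1r202* (428 bases, 3 UMIs) and *C230072F16Rik* (431 bases, not in the table), and for *Meg3* in *Gm27000* (842 bases, not in the table). Reads from those stretches are uncertain, and no such copy was found for the other 4 genes.

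Priming for these libraries relies on runs of A. The mature 3′ end of *Malat1* is made by RNase P and carries no poly(A) tail, and the long form of *Neat1* ends in the same way, so where molecules of these RNAs were primed bears on what their counts stand for. The longest annotated transcript had 1 run of at least 10 A in *Malat1*, 0 in *Neat1*, 6 in *Meg3* (the longest 16), 10 in *Kcnq1ot1* (the longest 41) and 0 in *Gas5* and *Snhg1*. Per kilobase this was 0.143 for *Malat1*, 0.412 for *Meg3* and 0.107 for *Kcnq1ot1*. Where in each RNA the UMIs fell was not analysed here, so the UMIs of *Neat1* were not assigned to its long or any other form. The last 30 bases of the longest annotated transcript of each gene are shown to set the annotated ends side by side. These need not be the mature ends. They run 5′ to 3′ in the sense of the RNA, with the polyadenylation signals AATAAA and ATTAAA in capitals.
Malat1: ttttatgaAATAAAaactaaatatctctca
Neat1: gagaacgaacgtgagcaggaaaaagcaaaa
Meg3: gctttcAATAAAtttcttgttttaactaaa
Kcnq1ot1: taatAATAAAgacATTAAAatccacaaaac
Gas5: ttttaccATTAAAgtgtattataacatgaa
Snhg1: tttgttctagcAATAAAtgctctttatgct
Of these 6 ends only that of *Neat1* held neither signal in its last 30 bases.

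Promoters were searched because the groups were set by Atf3, a transcription factor of the ATF/CREB family. RefSeq promoter windows (GRCm38.p6, 250 bases before to 50 after an annotated start) were found for 5 of the 6 genes, 2 of them for *Gas5* and 2 for *Meg3*; *Neat1* had no entry. The palindromic cAMP response element TGACGTCA, which reads the same on both strands, was in 1 window of *Gas5*, at position −46 from the start (chr1:161035120-161035127), and in 1 window of *Meg3*, at position −57 (chr12:109540939-109540946). It was in 588 of all 32851 windows (1.79%). Its core GACGTCA, searched on both strands and contained in the full element, was also in the *Malat1* window, at position −156 (chr19:5802822-5802828), and in 3.21% of all windows. The AP-1 element TGANTCA, also searched on both strands, was in none of the windows of these genes and in 7.81% of all. The 2 windows with the full element are printed with it in capitals, *Gas5* at chr1:161034916-161035215 and *Meg3* at chr12:109540746-109541045, both on the plus strand.
Gas5: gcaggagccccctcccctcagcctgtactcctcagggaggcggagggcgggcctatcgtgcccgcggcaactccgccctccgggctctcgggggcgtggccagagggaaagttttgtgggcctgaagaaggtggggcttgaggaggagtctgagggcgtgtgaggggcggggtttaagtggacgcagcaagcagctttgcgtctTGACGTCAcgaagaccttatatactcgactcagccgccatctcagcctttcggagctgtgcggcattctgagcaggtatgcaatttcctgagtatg
Meg3: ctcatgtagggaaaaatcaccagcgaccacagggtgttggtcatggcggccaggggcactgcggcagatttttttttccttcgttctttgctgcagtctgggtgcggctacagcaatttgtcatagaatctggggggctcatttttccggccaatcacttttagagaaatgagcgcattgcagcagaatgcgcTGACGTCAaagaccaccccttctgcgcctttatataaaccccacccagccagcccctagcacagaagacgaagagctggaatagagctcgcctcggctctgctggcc
A match of letters is not a bound site, and the 2 genes had log2 fold changes of opposite sign (0.86 for *Gas5* and −0.67 for *Meg3*). Over all genes tested that have the full element in a window, 229 in number, 122 had a positive and 107 a negative log2 fold change, with a median of 0.04 against 0.10 for the 5842 tested genes with a window, and 0 were called by edgeR, with 8 higher and 6 lower at an unadjusted p under 0.05.

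Many snoRNA hosts, *Gas5* among them, begin with a run of pyrimidines at the transcription start, as mRNAs of ribosomal proteins do. The 30 bases around the RefSeq start of both hosts are shown with the longest run of C and T within them in capitals, beside the same window of *Meg3*, which hosts no snoRNA in its own span.
Gas5: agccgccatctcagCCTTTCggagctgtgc
Snhg1: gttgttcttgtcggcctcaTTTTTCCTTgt
Meg3: acccagccagCCCCTagcacagaagacgaa
The run was 9 bases long in *Snhg1*, 6 in this window of *Gas5* and 5 in *Meg3*, and the second RefSeq windows of *Gas5* and *Meg3* had runs of 3 and 2. In the windows shown it began at position 4 from the RefSeq start in *Snhg1*, −1 in *Gas5* and −5 in *Meg3*. Only that of *Gas5* thus covered the start. Over all 32851 promoter windows the median length of the longest run, anywhere in these 30 bases, was 4. A run of at least 9 was present in 7.73% and a run of at least 6 in 29.2%.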

How the data were processed

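The authors sequenced the CEL-seq2 libraries on a NovaSeq6000 and aligned reads with HISAT2 (version 2.1.0) to the GRCm38 genome; UMI-tools (version 1.0.0) and featureCounts (version 1.6.4) are named in the submitters' processing notes. The table holds, as deposited, raw UMI counts for each gene in each library. The annotation release, the strand setting and the handling of reads with several matches are not given in the sources used here. Of the 17145 identifiers, 17140 were found in GENCODE M21. Rows without a symbol (194, 1.03% of the UMIs) were kept.

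Libraries were grouped by their labels. The study gives them as biological replicates, but the labels do not tie areas to animals, so p-values measure the spread between these libraries. Within groups, no pair of libraries came within sampling noise of each other (chi-square divided by its degrees of freedom 4.63 to 7.03). Genes with at least 10 UMIs over the 6 libraries (7665) were scaled by TMM and compared by the quasi-likelihood test of edgeR (version 4.0.16, R version 4.3.3) without covariates, with Benjamini-Hochberg adjustment over these genes and a threshold of 0.05. Standard errors were derived from the fold change and the F statistic. Alternatives used DESeq2 (version 1.42.0), limma-voom and limma-trend (limma version 3.58.1, log2(CPM + 4)), other scalings, other filters, a block for the replicate number, libraries thinned to 81117 UMIs, and each library left out. Copies were sought with BLAST+ (version 2.17.0), and intervals of shares came from SciPy (version 1.17.1). Genes named are the 6 members; of each list its 3 genes with most UMIs, its 2 of smallest p and any called; the 2 genes of at least 100 UMIs with the highest Pearson r of log2(CPM + 4) to each member; and genes that overlap a member or share near-identical sequence. A gene that this rule names is not reported here. The members and lists were chosen with earlier results of these data known.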

Additional observations from a re-analysis of the deposited data

How the results depend on the processing

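The log2 fold changes of *Snhg1*, *Gas5* and *Kcnq1ot1* were positive and that of *Meg3* negative under every alternative in which they were tested; *Kcnq1ot1* was not tested with filterByExpr, nor *Meg3* with it or with at least 50 UMIs. The values of *Malat1* and *Neat1* changed sign. *Malat1* was at 0.0099 with limma-voom, 0.18 with limma-trend and 0.14 with the replicate block, and between −0.67 and 0.98 with each library left out. *Neat1* was at −0.0291 with DESeq2 and with its size factors in edgeR, −0.0053 with at least 50 UMIs, −0.0043 with filterByExpr, −0.024 after thinning, and between −0.40 and 0.31 with each library left out. The cause was not tested, beyond the libraries left out. With each library left out *Snhg1* ranged from 1.76 to 2.82. The count of genes called, 7, was 12 with DESeq2, 3 with limma-trend, 4 with at least 50 UMIs, 4 after thinning and 0 to 11 with each library left out. The count at an unadjusted p under 0.05, 444, was 249 with DESeq2, 130 with at least 50 UMIs and 119 with filterByExpr, which test fewer genes, and 282 to 477 with each library left out. With the replicate number as a block, 24 genes and 1 member were called, *Snhg1* (log2 fold change 2.40, adjusted p 0.0197 by edgeR's Benjamini-Hochberg adjusted quasi-likelihood test, against 0.129 with DESeq2 and up to 1.00 under the other alternatives). Members called numbered 0 elsewhere. Libraries of the same number had correlated deviations of 0.0851, 0.000876 and 0.0656. Those of replicates 1 and 3 were the highest between the groups, while Atf3_high replicate 2 correlated best with Atf3_low replicate 1 (0.0103). All of these values are small, so this check does not decide whether the numbers pair the samples. The difference in the members' summed share, 0.0524 percentage points, ranged from 0.00053 to 0.105 with each library left out, moves within the Atf3_low SD but over the Atf3_high SD, and was 0.053 without mitochondrially encoded genes in the denominator. Counts were lowest for *Meg3* (28 UMIs) and the rarer snoRNA hosts.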
